A study of Mus musculus with 4 samples.

Results

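The 10 genes described here encode angiogenic growth factors and their receptors, namely *Vegfa*, *Pgf*, *Flt1* and *Kdr* of the vascular endothelial growth factor (VEGF) system, *Angpt1*, *Angpt2*, *Tek* and *Tie1* of the angiopoietin system, and *Apln* and *Aplnr* of the apelin system. They were chosen by name, and all 10 were listed among the 33981 genes that were joined across the tables. Gene expression was measured by bulk poly(A) RNA sequencing of brain from male C57BL/6J mice aged 3 to 5 months. Normotensive (NT) mice received saline and hypertensive (HT) mice received angiotensin II, a hormone that constricts vessels and raises blood pressure, from a pump for 28 days, the latter at a daily dose of 0.28 mg/kg. On day 7 the mice had either sham surgery or a photothrombotic stroke of the prefrontal cortex, in which light activates a dye in the blood and clots the illuminated vessels, and brains were taken on day 28. There were 6 libraries each of NT + Sham and HT + Sham and 6 each of NT + Stroke and HT + Stroke, 24 in all. RNA came from a coronal section that contained the prefrontal cortex and not from the infarct alone. Brains were perfused before collection.

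VEGF-A, the product of *Vegfa*, drives endothelial cells to proliferate and migrate through the receptor VEGFR2 (*Kdr*). VEGFR1 (*Flt1*) binds VEGF-A tightly, signals weakly and limits the amount that reaches VEGFR2, while placental growth factor (*Pgf*) binds VEGFR1 but not VEGFR2. Angiopoietin-1 (*Angpt1*), made largely by cells around the vessel, activates the endothelial receptor TIE2 (*Tek*) and keeps vessels quiescent. Angiopoietin-2 (*Angpt2*), made by activated endothelium, competes at the same receptor and loosens vessels for remodelling, and TIE1 (*Tie1*) is a co-receptor without a ligand of its own among these factors. Apelin (*Apln*) acts on the receptor APJ (*Aplnr*), a G protein-coupled receptor of sprouting and venous endothelium. These systems are known for their part in vessel growth at the border of an infarct.

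Library totals lay between 15922919 and 24865998 counts. By a score of 7 injury macrophage genes (the mean of log2 CPM, counts scaled to library size), 11 sham libraries lay between 1.2 and 2.07 and 10 stroke libraries between 4.45 and 6.55. The other 3 libraries stood apart from their groups: HT + Sham 6 scored 4.51, HT + Stroke 1 scored 2.9 and HT + Stroke 6 scored 2.79. Scores of striatal genes (3.56 to 7.65) and olfactory bulb genes (3.28 to 6.54) also varied between libraries, and both regions lie close to the prefrontal cortex. General neuronal markers scored between 9.51 and 9.97 in every library. In bulk RNA, fewer cells of a type and less RNA per cell cannot be told apart. Nothing in the labels says that libraries of a group came from separate animals, so P values measure the spread between these libraries.

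On the FPKM scale, in which fragments are divided by transcript length and library size, *Vegfa* had the highest mean level over the 24 libraries (11.3 FPKM), followed by *Apln* (7.28 FPKM). The receptors were lower, with means of 3.2 FPKM for both *Flt1* and *Tie1*, 1.82 FPKM for *Tek* and 0.865 FPKM for *Kdr*. *Pgf* averaged 1.5 FPKM, *Angpt1* 0.869 FPKM and *Angpt2* 0.455 FPKM. *Aplnr* was the lowest, at 0.139 FPKM, with a range from 0 to 0.473 FPKM, which equals 0 to 33 counts per library. *Angpt2* was also counted on few reads, from 11 to 76 per library, and the other 8 genes on 40 or more. Neighbours in this order overlapped in range over the libraries, with 2 exceptions. The lowest *Apln* level (5.26 FPKM) exceeded the highest of *Flt1* and *Tie1*, and the lowest *Tie1* level (2.33 FPKM) exceeded the highest *Tek* level (2.29 FPKM).

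**Figure D1:**
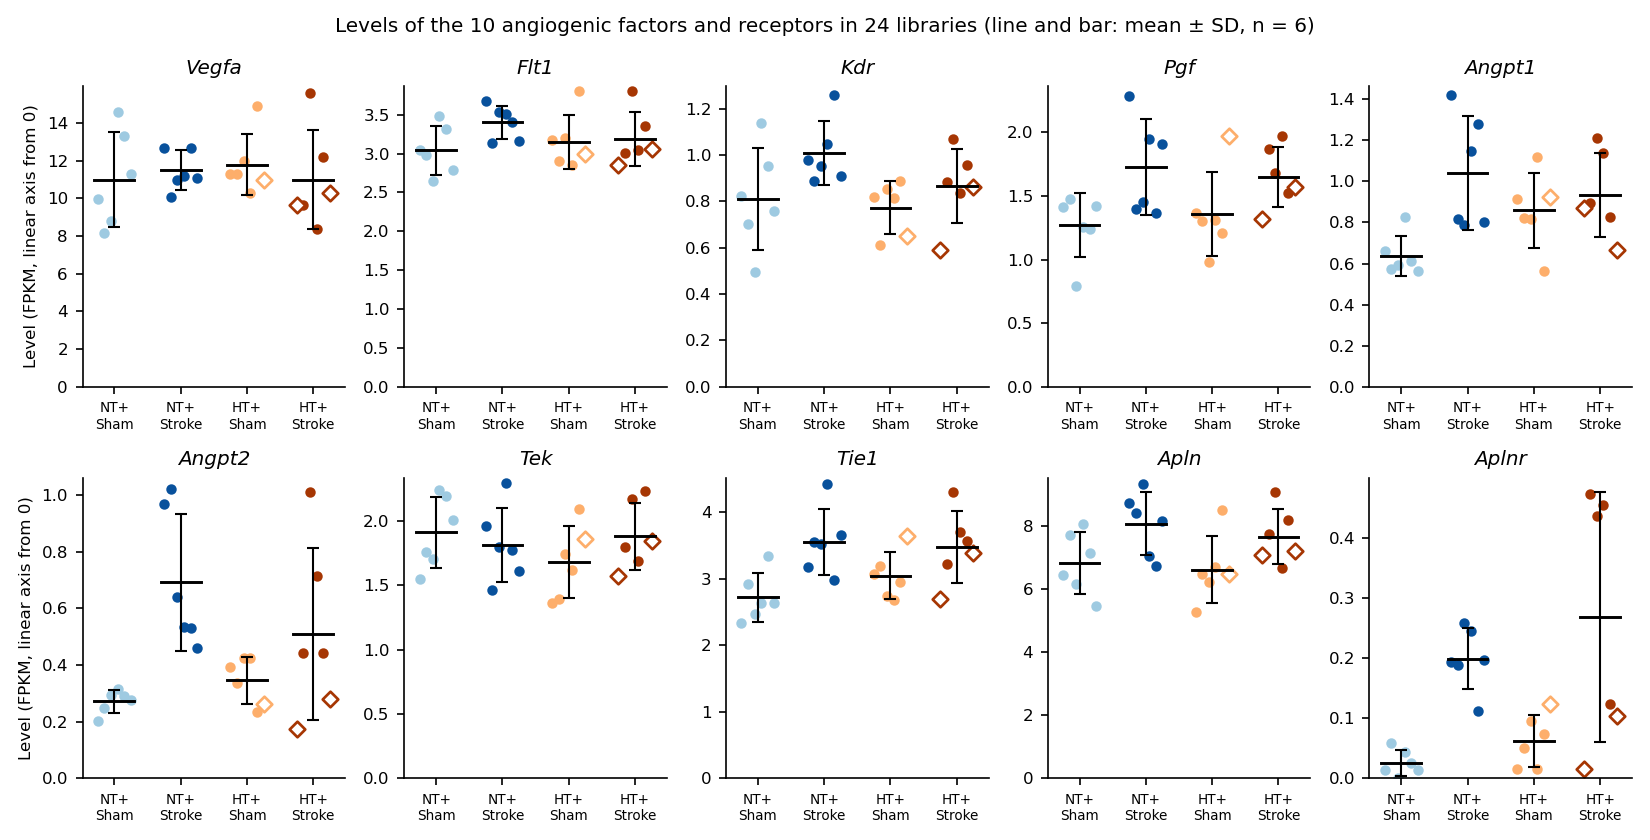
Level in FPKM (y axis, linear from 0) of each of the 10 genes in the 4 groups, with 1 point per library and the mean ± SD (n = 6) as a line and bar. Open diamonds mark HT + Sham 6, HT + Stroke 1 and HT + Stroke 6; *Aplnr* and *Angpt2* were higher in all 6 NT + Stroke libraries than in any NT + Sham library, whereas the ranges of *Vegfa* overlapped in all groups.

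The first comparison, NT + Stroke vs NT + Sham, asks what stroke did without angiotensin II. Of the 10 genes, 9 passed the filter on low counts and 3 of these rose: *Angpt2*, *Angpt1* and *Tie1*. Among all 16835 genes tested, 14.4% rose and 11.5% fell. *Aplnr* did not pass the filter, and its values are given separately.

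*Angpt2* (ENSMUSG00000031465, GRCm38 chr8:18690263-18741562, minus strand) showed the largest difference of the 9. Its lowest, median and highest levels were 0.202, 0.283 and 0.316 FPKM in NT + Sham and 0.46, 0.586 and 1.02 FPKM in NT + Stroke. No NT + Stroke library was as low as any NT + Sham library, and NT + Stroke 1 and 2 were the highest. The mean was 0.272 ± 0.0405 FPKM in NT + Sham and 0.692 ± 0.241 FPKM in NT + Stroke (SD, n = 6). The log2 fold change was 1.28 (SE 0.23, adjusted *P* = 0.000494), or 2.43-fold with a 95% interval of 1.73 to 3.42. *Angpt2* lies inside *Mcph1*, which is on the other strand, and the strand setting of the authors' counting was not given in the sources used here. *Mcph1* was at 6.61 ± 0.97 CPM in NT + Sham and 5.72 ± 0.629 CPM in NT + Stroke (SD, n = 6), lower on average where *Angpt2* was higher. For complete separation of 6 libraries above 6, the share among all 32743 genes with a count was 4.31%.

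*Angpt1* (ENSMUSG00000022309, chr15:42424723-42676977, minus strand), the activating ligand, rose as well. Its levels ran from 0.565 through a median of 0.603 to 0.825 FPKM in NT + Sham and from 0.787 through 0.984 to 1.42 FPKM in NT + Stroke. The groups overlapped through NT + Sham 4, the highest sham library, while NT + Stroke 1, 4 and 5 lay above every sham library. The log2 fold change was 0.66 (SE 0.17, adjusted *P* = 0.00713), or 1.58-fold with a 95% interval of 1.23 to 2.01.

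*Tie1* (ENSMUSG00000033191, chr4:118471191-118490061, minus strand) was the only receptor of the 4 tested that rose. It ran from 2.33 through 2.63 to 3.34 FPKM in NT + Sham and from 2.98 through 3.53 to 4.42 FPKM in NT + Stroke. NT + Sham 5 fell within the stroke range and NT + Stroke 4 was the highest library. The log2 fold change was 0.34 (SE 0.11, adjusted *P* = 0.0232). This call was lost without NT + Sham 1 and without NT + Stroke 4. The partner receptor *Tek* (ENSMUSG00000006386, chr4:94739289-94874976, plus strand), which carries the angiopoietin signal, had a log2 fold change of -0.12 (95% interval -0.37 to 0.14, adjusted *P* = 0.533). In FPKM, the ratio of *Tie1* to *Tek* was 1.44 ± 0.171 in NT + Sham and 1.98 ± 0.317 in NT + Stroke (SD, n = 6), and the ratio of *Angpt2* to *Angpt1* was 0.431 ± 0.0739 and 0.699 ± 0.303. In HT + Sham and HT + Stroke the ratio of *Tie1* to *Tek* was 1.86 ± 0.373 and 1.86 ± 0.212, and that of *Angpt2* to *Angpt1* was 0.407 ± 0.0767 and 0.517 ± 0.211 (SD, n = 6). No ratio was tested.

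*Aplnr* (ENSMUSG00000044338, chr2:85136225-85139923, plus strand), the apelin receptor, was almost undetected in NT + Sham. Its NT + Sham libraries 1 to 6 held 1, 4, 0, 3, 2 and 1 counts, and its NT + Stroke libraries held 13, 11, 17, 22, 8 and 18 counts. Every stroke library exceeded every sham library. The mean was 0.0258 ± 0.0215 FPKM in NT + Sham and 0.199 ± 0.0514 FPKM in NT + Stroke (SD, n = 6). When all genes with any count were fitted, the log2 fold change was 2.80 (SE 0.51, adjusted *P* = 3.09e-05). DESeq2 gave 2.90 (adjusted *P* = 5.34e-06). Its ligand *Apln* (ENSMUSG00000037010, chrX:48025146-48034853, minus strand) had a log2 fold change of 0.19 (95% interval -0.02 to 0.40, adjusted *P* = 0.181). On the FPKM scale the ligand exceeded the receptor 42.7 ± 10.5 times in NT + Stroke (SD, n = 6), and 132 to 478 times in the 5 NT + Sham libraries with a receptor count.

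The VEGF genes did not pass the test in this comparison. *Vegfa* (ENSMUSG00000023951, chr17:46016993-46032369, minus strand) lay between 8.16 and 14.6 FPKM in NT + Sham and between 10.1 and 12.7 FPKM in NT + Stroke. Its log2 fold change of 0.01 had a 95% interval of -0.25 to 0.28 (adjusted *P* = 0.964), so a change of more than 1.21-fold upwards lay outside the interval. *Pgf* (ENSMUSG00000004791, chr12:85166635-85177790, minus strand) was at 1.27 ± 0.251 FPKM in NT + Sham and 1.73 ± 0.377 FPKM in NT + Stroke (SD, n = 6). Its log2 fold change was 0.40 (adjusted *P* = 0.0838). The receptor genes *Kdr* (ENSMUSG00000062960, chr5:75932827-75978458, minus strand) and *Flt1* (ENSMUSG00000029648, chr5:147561604-147726011, minus strand) had log2 fold changes of 0.26 (adjusted *P* = 0.243) and 0.11 (adjusted *P* = 0.263). All 6 NT + Stroke libraries lay above the NT + Sham median for both receptors.

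Some markers of vessels, of other cells and of a neighbouring brain region differed in this comparison. Of 12 endothelial genes 3 rose (*Abcb1a*, *Cdh5* and *Cldn5*), with a list median of 0.09 on the log2 scale, and the endothelial score ran from 4.23 to 4.38 in NT + Sham and from 4.32 to 4.59 in NT + Stroke. Of 7 pericyte genes 3 rose, and their score ran from 3.62 to 3.9 and from 4.1 to 4.33. With the endothelial score as a covariate, the log2 fold changes were 0.84 for *Angpt2*, 0.64 for *Angpt1* and 0.14 for *Tie1*, and 0 genes of the 9 passed the test. With the striatal and olfactory bulb scores as covariates they were 1.2, 0.41 and 0.50, and again 0 passed. Calls over all genes also fell, to 1197 with the endothelial and 943 with the regional covariates. Without covariates 2426 were higher and 1939 lower. Of 6 fibroblast genes 5 rose, with scores from 2.79 to 3.24 in NT + Sham and from 4.7 to 6.36 in NT + Stroke. All 7 injury macrophage genes rose (median log2 fold change 5.12), as did 5 of 6 astrocyte and 5 of 6 microglia genes, while 3 of 6 neuronal genes fell (*Slc17a7*, *Snap25* and *Syt1*). Of the injury macrophage genes, *Cst7* and *Itgax* were filtered in HT + Sham vs NT + Sham, so their stroke libraries carried them past the filter here. Of 6 olfactory bulb genes 3 rose (*Doc2g*, *Th* and *Trh*) and 1 fell (*Tbr1*). Their score ran from 4.11 to 5.14 in NT + Sham and from 4.62 to 6.31 in NT + Stroke. Of 6 striatal genes 0 passed, with a list median of 0.76. The part of these cells and regions in the differences was not tested.

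In HT + Stroke vs HT + Sham, the same question in mice infused with angiotensin II, 0 of the 9 genes tested passed, against 0.544% of all 16741 genes that rose and 0.102% that fell. At an unadjusted *P* under 0.05 there were also 0 of 9, against 2842 of all 16741 genes. DESeq2, which tested all 10, called *Aplnr* alone.

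*Aplnr* counts in HT + Stroke libraries 1 to 6 were 1, 30, 33, 30, 9 and 6, against 1, 3, 6, 1, 5 and 9 in HT + Sham. HT + Stroke 2, 3 and 4 had the highest counts of all 24 libraries, while HT + Stroke 1 was as low as the lowest HT + Sham library. In the fit of all genes with a count the log2 fold change was 2.0 (SE 0.62, adjusted *P* = 0.189). DESeq2 gave 2.04 (adjusted *P* = 0.0479), and a fit of all 4 groups together gave 2.0 (adjusted *P* = 0.0265). In that 4-group fit *Aplnr* passed the filter on low counts only through its stroke libraries, so its call there is not separate support. Without HT + Sham 6, HT + Stroke 1 and HT + Stroke 6, the counts ran from 1 to 6 in HT + Sham and from 9 to 33 in HT + Stroke. Those 3 libraries were picked by their injury scores after the data were seen, and they held 9, 1 and 6 counts. The gap between the ranges therefore depends on that choice, and its share over all genes was not computed.

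*Angpt2* ran from 0.235 through a median of 0.364 to 0.426 FPKM in HT + Sham and from 0.173 through 0.443 to 1.01 FPKM in HT + Stroke. HT + Stroke 1 and 6 lay within or below the sham range and the other 4 stroke libraries above it. The log2 fold change was 0.53 (95% interval -0.18 to 1.25, adjusted *P* = 0.445), and 0.79 (adjusted *P* = 0.119) without the 3 libraries that stood apart. *Angpt1* had a log2 fold change of 0.09 (95% interval -0.28 to 0.47, adjusted *P* = 0.841) and *Tie1* of 0.17 (95% interval -0.06 to 0.39, adjusted *P* = 0.445).

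*Pgf* ran from 0.984 to 1.97 FPKM in HT + Sham, where HT + Sham 6 was the highest, and from 1.32 to 1.97 FPKM in HT + Stroke. Its log2 fold change was 0.26 (adjusted *P* = 0.453), and 0.46 (adjusted *P* = 0.109) without the 3 libraries. The remaining genes had log2 fold changes of 0.19 (*Apln*), 0.14 (*Kdr*), 0.14 (*Tek*), -0.01 (*Flt1*) and -0.13 (*Vegfa*). Leaving out the 3 libraries raised the count of all genes that passed from 108 to 1437, and the count of angiogenic genes was again 0 of 9. The endothelial score ran from 4.33 to 4.46 in HT + Sham and from 4.2 to 4.52 in HT + Stroke, and the striatal score from 3.56 to 6.3 and from 5.83 to 7.65.

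Averaged over NT and HT in a fit of all 24 libraries, 4 of the 9 genes other than *Aplnr* rose: *Angpt2*, *Tie1*, *Angpt1* and *Pgf*. Among all 17608 genes tested, 14.2% rose and 11.6% fell. For the ligands, *Angpt2* had an averaged log2 fold change of 0.90 (SE 0.21, adjusted *P* = 0.00207), *Angpt1* of 0.37 (SE 0.12, adjusted *P* = 0.0264) and *Pgf* of 0.32 (SE 0.12, adjusted *P* = 0.0433). For *Tie1* it was 0.24 (SE 0.07, adjusted *P* = 0.0162). *Aplnr* passed the filter on low counts here only through its stroke libraries, since its 12 sham libraries held 0 to 9 counts, and it is therefore not counted with the 4. When all genes with any count were fitted, without that filter, its averaged log2 fold change was 2.40 (adjusted *P* = 4.06e-05), and *Pgf* did not pass (0.31, adjusted *P* = 0.0778).

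*Apln* had an averaged log2 fold change of 0.18 (adjusted *P* = 0.0764) and *Kdr* of 0.19 (adjusted *P* = 0.206). *Vegfa* (-0.07, 95% interval -0.26 to 0.12), *Flt1* (0.04, interval -0.07 to 0.15) and *Tek* (0.00, interval -0.18 to 0.18) did not pass. The 4 calls were also made without the 3 libraries that stood apart, with larger log2 values for each gene, from 0.31 for *Tie1* to 1.03 for *Angpt2*. Those libraries were picked by their injury scores after the data were seen, so this fit is not separate support for the calls. All genes called then numbered 5496, against 2498 higher and 2043 lower with all 24 libraries. With the endothelial score as a covariate 0 of the 9 passed, and 1830 of all genes. With the regional scores *Angpt2* (0.62, adjusted *P* = 0.174) was lost and *Tie1*, *Angpt1* and *Pgf* passed, and 1609 of all genes. The *Pgf* call was made in 11 of 24 fits that left out 1 library, and the *Angpt1* call was lost without NT + Stroke 1 and without HT + Stroke 4. In this averaged comparison 6 of 6 striatal markers, 1 of 12 endothelial and 3 of 7 pericyte markers rose, and their part in the 4 calls was not tested.

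**Figure D2:**
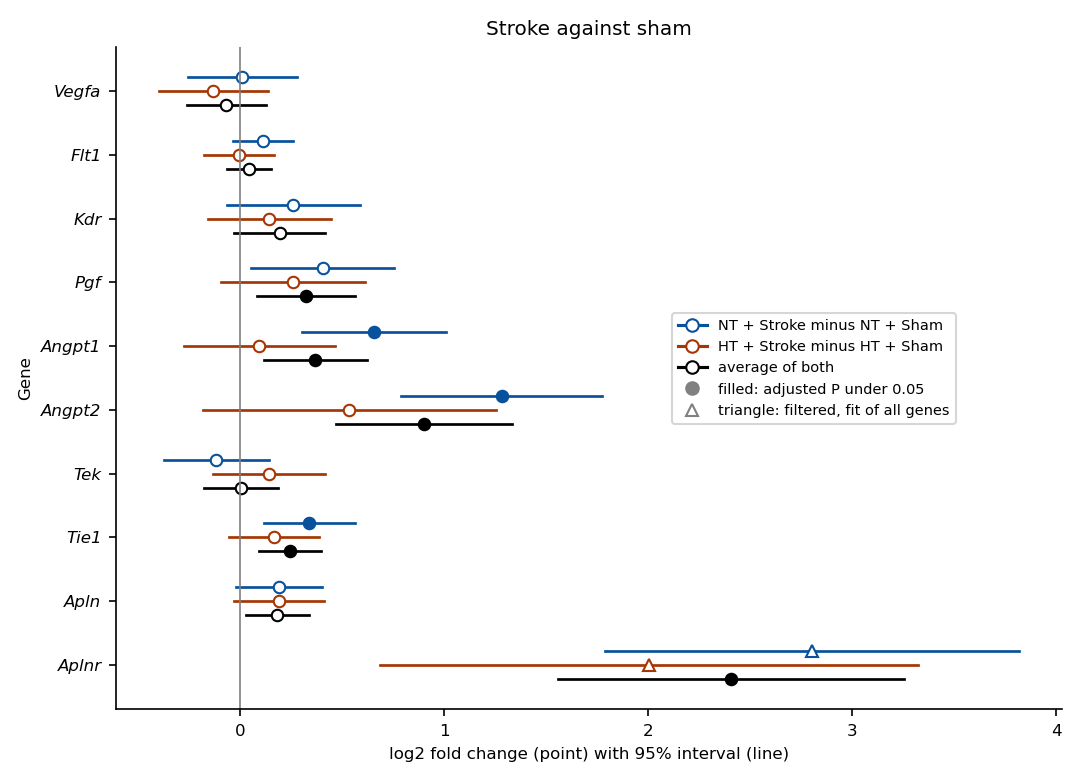
Log2 fold change of stroke over sham (x axis, point) with its 95% interval (line) for each gene (y axis) in NT mice, in HT mice and averaged over both, with triangles where *Aplnr* was filtered and is shown from the fit of all genes with a count. Filled points passed at an adjusted *P* under 0.05: *Angpt1*, *Angpt2* and *Tie1* in NT, 0 in HT, and *Pgf*, *Angpt1*, *Angpt2*, *Tie1* and *Aplnr* in the average, where *Aplnr* passed the count filter through its stroke libraries only.

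The stroke effects in HT and NT mice were compared with an interaction test. The interaction is the stroke effect in HT minus that in NT, on the log2 scale. It passed for 0 of the 10 genes and 0 of all 17608 tested by edgeR, with 1 of the 10 and 1836 of all genes at an unadjusted *P* under 0.05, and DESeq2 called 0 of the 9 of these that it tested and 22 genes in all. The 1 angiogenic gene was *Angpt1*, at -0.57 (95% interval -1.07 to -0.06, adjusted *P* = 0.435). *Angpt2* had an interaction of -0.75 (95% interval -1.62 to 0.11, adjusted *P* = 0.538). A stroke effect on *Angpt1*, *Angpt2* or *Tie1* that was called in NT and not in HT was therefore not shown to differ between them.

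Angiotensin II alone was examined in HT + Sham vs NT + Sham. Of 9 genes tested 0 passed, as did 0 of 16581 in all (0%), and the counts at an unadjusted *P* under 0.05 were 1 and 1332. DESeq2 also called 0 of the 10. *Angpt1* was the 1 gene, with levels from 0.562 to 1.12 FPKM in HT + Sham, of which 5 of 6 libraries lay above the NT + Sham median. Its log2 fold change was 0.41 (SE 0.16, adjusted *P* = 0.53). *Angpt2* was at 0.346 ± 0.0826 FPKM in HT + Sham (SD, n = 6), with a log2 fold change of 0.32 (95% interval -0.15 to 0.80, adjusted *P* = 0.785). *Tek* had a log2 fold change of -0.20 (95% interval -0.46 to 0.06), *Vegfa* of 0.08 (95% interval -0.18 to 0.34) and *Pgf* of 0.08 (95% interval -0.29 to 0.46).

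In stroke, HT + Stroke vs NT + Stroke gave 0 of 10 genes and 0 of 17008 in all (0%), with 0 and 1230 at an unadjusted *P* under 0.05. The log2 fold changes ran from -0.44 for *Angpt2* (95% interval -1.16 to 0.29) to 0.41 for *Aplnr* (95% interval -0.64 to 1.47). The spread was wider in HT + Stroke than in NT + Stroke for *Aplnr*, at 0.268 ± 0.208 FPKM against 0.199 ± 0.0514 FPKM (SD, n = 6). Averaged over sham and stroke, the angiotensin II effect passed for 0 of 10 genes (0% of all 17608), with 0 and 776 at an unadjusted *P* under 0.05. The averaged log2 values lay between -0.16 for *Kdr* and 0.82 for *Aplnr* (95% interval -0.06 to 1.71, adjusted *P* = 0.9). DESeq2 called 0 of the 10 in both comparisons.

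**Figure D3:**
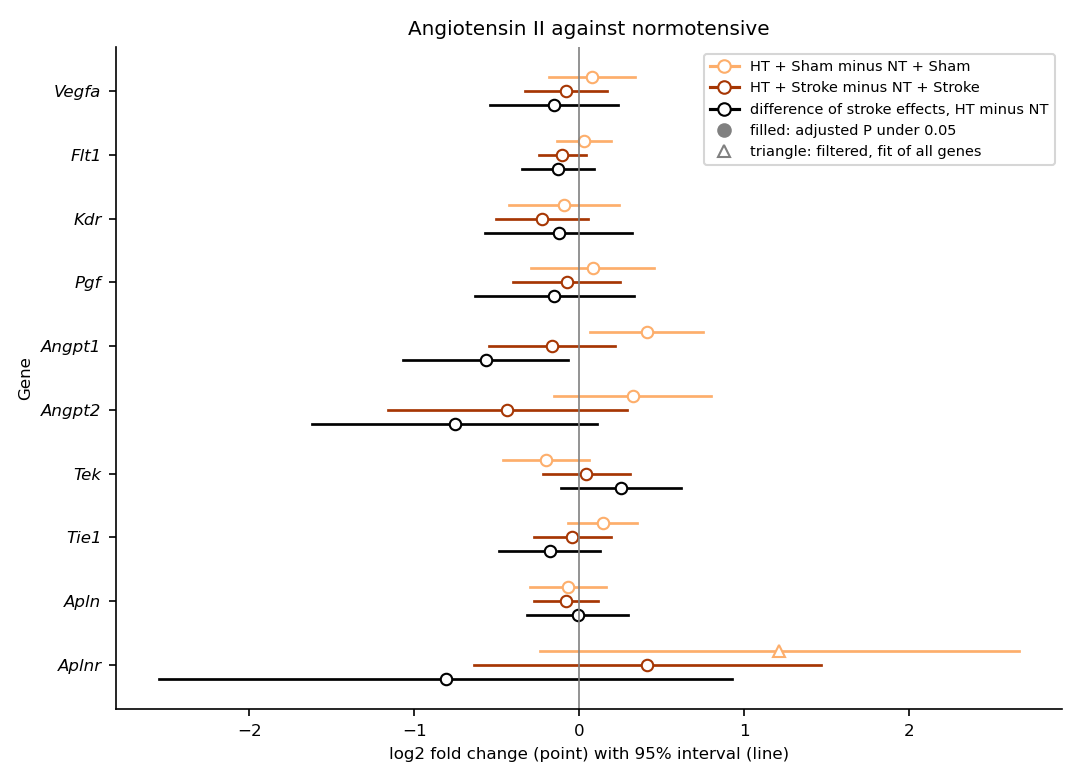
Log2 fold change of HT over NT (x axis, point) with its 95% interval (line) for each gene (y axis) in sham and in stroke mice, and the difference of the stroke effects (HT minus NT), with a triangle where *Aplnr* was filtered. No point is filled, since 0 of the 10 genes passed in these comparisons; *Aplnr*, on few counts, had the widest intervals.

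In HT + Stroke vs NT + Sham, which compares mice with both conditions to mice with neither and shares its groups with the comparisons above, 1 of 9 genes rose, against 8.38% of 16749 that rose and 6.37% that fell. It was *Angpt1*, with a log2 fold change of 0.51 (SE 0.16, adjusted *P* = 0.0408). This call was made in 3 of 12 fits that left out 1 library. The log2 fold change was 0.31 for *Tie1* (adjusted *P* = 0.0637) and 0.86 for *Angpt2* (adjusted *P* = 0.0941). Without HT + Stroke 1 and 6 both passed, at 0.39 (adjusted *P* = 0.0212) and 1.2 (adjusted *P* = 0.00514). Those 2 libraries were left out for their low injury scores, after the data were seen. All genes called then numbered 3544, against 1403 higher and 1067 lower with them. *Aplnr*, in the fit of all genes with a count, was at 3.22 (adjusted *P* = 0.00931).

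Among the 12 stroke libraries, the levels of the genes were set against the injury macrophage score and the endothelial score, 20 relations in all. *Angpt2* followed the injury macrophage score, with Pearson's r = 0.868 (permutation *P* = 0.00134, adjusted *P* = 0.0268) and Spearman's rho = 0.839 (permutation *P* = 0.00228, adjusted *P* = 0.0456). Without HT + Stroke 1 and 6, the farthest from the median score, r was 0.652 (permutation *P* = 0.0505), so the relation rests in part on those libraries. Within groups r was 0.589 in NT + Stroke (exact permutation *P* = 0.19) and 0.926 in HT + Stroke (exact permutation *P* = 0.00833). *Aplnr* had r = 0.772 (permutation *P* = 0.0135, adjusted *P* = 0.0538) and rho = 0.664 (permutation *P* = 0.0714, adjusted *P* = 0.357), and r = 0.522 (permutation *P* = 0.106) without those 2. *Vegfa* had r = 0.16 (permutation *P* = 0.703, adjusted *P* = 0.74) and rho = 0.0629 (permutation *P* = 0.88, adjusted *P* = 0.88).

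With the endothelial score, r passed for *Angpt2* (0.746), *Aplnr* (0.703) and *Pgf* (0.656), each with an adjusted permutation *P* of 0.0471, and rho for none of them (0.594, 0.392 and 0.594, adjusted permutation *P* = 0.331, 0.541 and 0.331). Without HT + Stroke 1 and NT + Stroke 5 the r values were 0.618, 0.0883 and 0.404 (permutation *P* = 0.0628, 0.781 and 0.181). The relation of *Aplnr* rests on those libraries, and those of *Angpt2* and *Pgf* rest on them in part. The permutations kept NT and HT libraries apart.

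**Figure D4:**
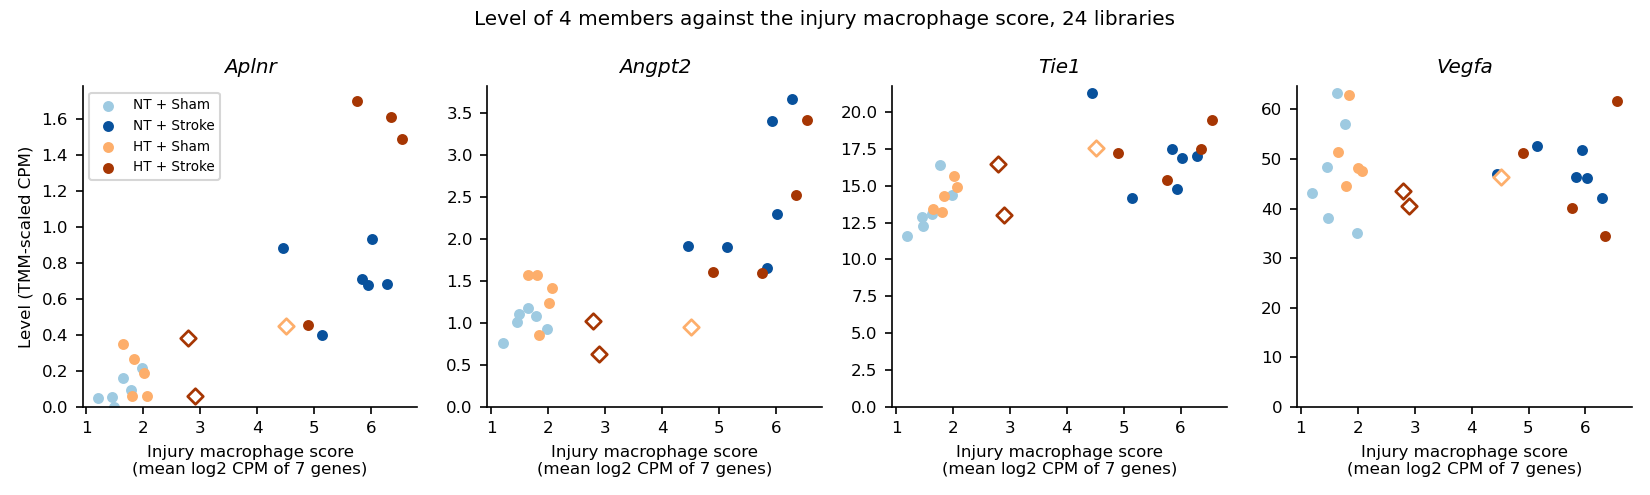
Level (y axis, scaled CPM, linear from 0) of *Aplnr*, *Angpt2*, *Tie1* and *Vegfa* against the injury macrophage score (x axis, mean log2 CPM of 7 genes), 1 point per library and open diamonds for the 3 libraries that stood apart. *Angpt2* was highest in stroke libraries with high scores, while *Vegfa* covered the same range at low and high scores.

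Some of the genes also varied together from library to library. Over the 24 libraries, the correlation of log2 CPM was 0.765 between *Flt1* and *Kdr*, 0.753 between *Vegfa* and *Flt1*, 0.745 between *Tie1* and *Aplnr*, and 0.698 between *Angpt2* and *Aplnr*. After each group was centred on its mean, the values were 0.75, 0.8, 0.556 and 0.496. *Tek* and *Tie1*, partners in one receptor complex, had 0.213 and 0.403. Centred values were also 0.691 between *Vegfa* and *Kdr*, 0.675 between *Flt1* and *Tek* and 0.658 between *Vegfa* and *Tek*, and -0.0734 between the ligands *Vegfa* and *Pgf*. These are descriptions over libraries that differ in region content and depth.

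The sequence before the start site is shown for these receptors, because *Flt1* and *Kdr* varied together and *Tie1* rose while *Tek* did not pass the test. RefSeq (GRCm38.p6) windows matched 7 of the 10 genes, and *Angpt1*, *Angpt2* and *Aplnr* are named only. Each window of 300 bases, from 250 before to 50 after the start, was searched on both strands for the hypoxia response core, ACGTG or GCGTG. It was present in 43.8% of 32851 windows. The 250 bases before the start are printed 5′ to 3′ on the gene's strand, with matches in capitals.
*Flt1*, chr5:147726012-147726261, minus strand: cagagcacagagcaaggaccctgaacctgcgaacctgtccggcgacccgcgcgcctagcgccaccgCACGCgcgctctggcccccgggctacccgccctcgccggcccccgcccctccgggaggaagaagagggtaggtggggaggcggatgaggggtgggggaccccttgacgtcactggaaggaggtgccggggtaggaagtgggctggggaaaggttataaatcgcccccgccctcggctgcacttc
*Kdr*, chr5:75978456-75978705, minus strand: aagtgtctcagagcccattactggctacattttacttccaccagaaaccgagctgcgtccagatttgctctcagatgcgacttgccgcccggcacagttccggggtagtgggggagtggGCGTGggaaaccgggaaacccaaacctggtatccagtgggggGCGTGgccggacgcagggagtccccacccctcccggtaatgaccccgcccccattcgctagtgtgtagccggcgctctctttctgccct
*Tie1*, chr4:118489850-118490099, minus strand: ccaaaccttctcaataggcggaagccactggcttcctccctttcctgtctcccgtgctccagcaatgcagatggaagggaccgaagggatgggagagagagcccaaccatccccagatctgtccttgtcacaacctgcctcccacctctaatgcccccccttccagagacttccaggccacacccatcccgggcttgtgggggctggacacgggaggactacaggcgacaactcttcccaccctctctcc
*Tek*, chr4:94739039-94739288, plus strand: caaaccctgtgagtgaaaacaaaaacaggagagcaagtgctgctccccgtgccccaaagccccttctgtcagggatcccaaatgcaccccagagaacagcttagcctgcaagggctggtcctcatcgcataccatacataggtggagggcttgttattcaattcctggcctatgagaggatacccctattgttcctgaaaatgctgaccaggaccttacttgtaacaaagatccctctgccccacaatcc
*Kdr* held 2 matches, *Flt1* 1, and *Tie1* and *Tek* 0. *Vegfa* has 2 windows. The window across the 5′ end of the gene (chr17:46032328-46032627) held 0 matches. The other lies inside the gene (chr17:46025114-46025413) and held 2. *Pgf* has 2 windows with 1 and 0 matches, and *Apln* 1 window with 0. A match describes letters and not a bound site.

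Other genes of the same pathways were read from lists chosen for their roles. Of 6 other VEGF ligands and receptors, 0 rose and 1 fell in NT + Stroke vs NT + Sham, with a median log2 fold change of 0.05 against -0.01 for all genes. The 1 was *Vegfd*, a lymphangiogenic ligand (-0.66, adjusted *P* = 0.00774), named after its values were seen. Of 4 other genes of the angiopoietin and apelin systems, *Angpt4* and *Apela* were filtered, the phosphatase *Ptprb* was at -0.07 (adjusted *P* = 0.613), and *Foxo1* rose. *Foxo1*, a transcription factor that angiopoietin-1 signalling restrains and that can induce *Angpt2*, rose by 0.57 (adjusted *P* = 0.00515) in NT and by 0.58 (adjusted *P* = 0.0344) in HT on the log2 scale. It went from 2.01 ± 0.383 to 3.08 ± 0.538 FPKM in NT and from 1.93 ± 0.26 to 2.94 ± 0.534 FPKM in HT (SD, n = 6). The 6 striatal markers had median log2 fold changes of 0.76 in NT and 1.47 in HT, with 0 passing in either. The part of region content in the *Foxo1* difference was not tested.

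Of 8 Notch and tip cell genes 2 rose in NT (*Esm1* and *Jag1*), with a median log2 fold change of 0.21, and 1 of 7 in HT (*Unc5b*). *Esm1* passed the filter on low counts only in comparisons that held NT + Stroke, where its mean level was highest (0.337 FPKM). It was filtered in HT. The hypoxia response list held 10 genes, both regulators of the response, such as *Epas1* and *Vhl*, and genes that low oxygen induces. Of these, 1 rose (*Epas1*) and 3 fell (*Bnip3*, *Ldha* and *Pdk1*) in NT, with a median of 0.02. In HT 0 passed, with a median of -0.09. Of 8 other angiogenic factors and receptors 5 rose in NT (*Cxcl12*, *Cxcr4*, *Fgfr1*, *Igf1* and *Tgfb1*), with a median of 0.65, and 0 in HT, with a median of 0.52. These genes were also named after their values were seen.

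Of 6 genes listed as inhibitors of angiogenesis 5 rose in NT, with a median log2 fold change of 1.57, and 1, *Thbs4*, in HT, with a median of 0.86. The 5 in NT were *Col18a1*, *Serpinf1*, *Thbs1*, *Thbs2* and *Thbs4*, and 0 of the list other than *Thbs4* passed in HT. *Thbs4*, a matrix thrombospondin without the repeats through which *Thbs1* and *Thbs2* products block vessel growth, rose in both, by 1.60 (adjusted *P* = 0.00139) in NT and by 1.63 (adjusted *P* = 0.00627) in HT on the log2 scale. Its level was 1.66 ± 0.557 FPKM in NT + Sham and 5.2 ± 1.86 FPKM in NT + Stroke, and 1.54 ± 0.363 and 4.89 ± 1.66 FPKM in the HT groups (SD, n = 6).

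**Figure D5:**
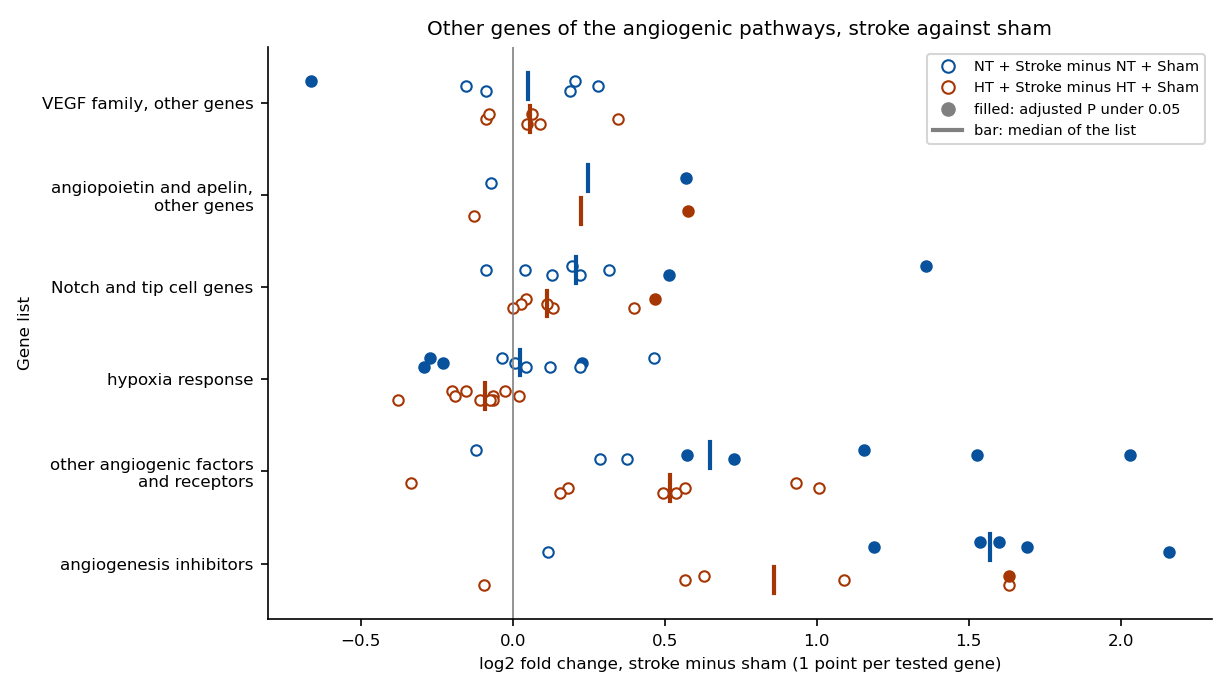
Log2 fold change of stroke over sham (x axis) for each tested gene of 6 pathway lists (y axis), in NT and in HT mice, with filled points at an adjusted *P* under 0.05 and a bar at each list's median. The medians of inhibitors (1.57 and 0.86) and of other angiogenic factors (0.65 and 0.52) lay to the right of 0, and those of hypoxia response genes (0.02 and -0.09) close to it.

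Genes outside the 10 whose log2 CPM was most like that of each were sought among 15486 genes with a mean CPM of at least 1, over the 24 libraries. *Angpt2* was most like *Thbs2* (r = 0.909), *Prrx1* (r = 0.907) and *Slco2b1* (r = 0.899), and the same 3 led after the groups were centred (r = 0.831, 0.849 and 0.857). *Aplnr* was most like *Fgfrl1* (r = 0.917), *Slfn5* (r = 0.916) and *Slc7a7* (r = 0.911). After centring, the 3 most like *Aplnr* were *Slfn5*, *Fgfrl1* and *Col15a1*. For *Pgf* they were *Syde1* (r = 0.838), *Aldh1l1* (r = 0.775) and *Ivd* (r = 0.771), and after centring *Syde1*, *Ivd* and *Htra4* (r from 0.738 to 0.778). The 3 for *Angpt1* were *Matn4* (r = 0.821), *Alox12* (r = 0.804) and *Plekha4* (r = 0.79), and after centring *Ctbp2*, *Mcub* and *Tmem108* (r from 0.722 to 0.756). For *Tie1* they were *Cchcr1* (r = 0.849), *Gm7694* (r = 0.84) and *BC034090* (r = 0.827), and after centring *Swap70*, *Gm7694* and *Cchcr1* (r from 0.747 to 0.766). The 3 for *Tek* were *Chst3* (r = 0.821), *Acadsb* (r = 0.72) and *Slc20a1* (r = 0.717), and after centring *Chst3*, *Cep68* and *Slc20a1* (r from 0.82 to 0.851). For *Apln* they were *Sdf4* (r = 0.777), *Wnk1* (r = 0.759) and *Ppp1r3c* (r = 0.755), and after centring *Sdf4*, *Trp53inp2* and *Atg12* (r from 0.755 to 0.789). The 3 for *Vegfa* were *Gm44562* (r = 0.9), *Dock3* (r = 0.893) and *Gm11847* (r = 0.893), and after centring *Tbce*, *AC154760.1* and *Gm44562* (r from 0.929 to 0.944). For *Flt1* they were *Kdm2a* (r = 0.853), *Tnfrsf19* (r = 0.834) and *Ago1* (r = 0.811), and after centring *Zmiz1*, *Kansl1* and *Cables2* (r from 0.844 to 0.857). The 3 for *Kdr* were *Apcdd1* (r = 0.788), *Gbp4* (r = 0.783) and *Ets1* (r = 0.78), and after centring *Ilf2*, *Zfp397* and *Sap130* (r from 0.799 to 0.835).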

How the data were processed

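RNA from coronal brain sections of 24 libraries was sequenced after poly(A) selection. The authors deposited 4 tables, each for a pair of groups, with gene counts and FPKM values per library, and 48 library comparisons between tables found 0 that differed. The authors made the counts with featureCounts 1.5.0-p3 and list DESeq2 1.20.0 (submitters' processing notes), and the aligner and genome build are not given in the sources used here. Of the genes, 97.65% have the same position in GENCODE M21 (GRCm38), all 10 members among them. The deposited FPKM values scale the counts by gene length and library total. The tables' 48 columns of normalized counts and 8 of group means (56 columns), and the columns of the authors' own fold changes and P values, were not used. Library numbers come from the column names and groups from the labels.

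Deposited counts were tested with edgeR 4.0.16 (R 4.3.3) by the quasi-likelihood test with robust dispersion, TMM scaling and filterByExpr (minimum count 10, minimum total 15), with P values adjusted by Benjamini-Hochberg across every gene that was tested and a threshold of 0.05. Pairs of groups were fitted on their 12 libraries, and the interaction and averaged effects on all 24. Intervals are 95% intervals of the fit. Levels are FPKM, while fold changes come from counts. Scores are means of log2 CPM with a prior count of 2. Correlations used 100000 two-sided permutations within groups. Alternatives were DESeq2 1.42.0, limma 3.58.1 on log2(FPKM + 1) and log2(FPKM + 0.1), other scaling and filters, covariates, the library number as a block, and each library left out. The code was tested on simulated data. All 10 members are named throughout. Of the pathway lists, genes that passed in both stroke comparisons are named by rule, and for each member the 3 most similar genes with and without centring on group means. Other list and marker genes were named after their values were seen. The members and lists were chosen with earlier results of these data known. Totals between 15922919 and 24865998 counts limit precision for *Aplnr* and *Angpt2* most.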

Additional observations from a re-analysis of the deposited data

Results flagged for a closer look

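In 2 of the 40 combinations of gene and group examined, 1 library lay far from the other 5 of its group by Dixon's test, and chance alone gives about 1 in 20. *Flt1* was highest in HT + Sham 5, at 50.8 CPM against 38.5 to 43 CPM in the other 5 HT + Sham libraries. *Pgf* was lowest in NT + Sham 3, at 2.31 CPM (40 counts) against 3.6 to 4.3 CPM in the other 5 NT + Sham libraries.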

How the results depend on the processing

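In NT + Stroke vs NT + Sham, 3 members passed, 3 or 4 with every other scaling, filter and tool run, and 0 with the endothelial or the regional (striatal and olfactory bulb) covariates, where 1197 and 943 of all genes passed, and leaving out 1 library gave 2 to 4. In HT + Stroke vs HT + Sham, DESeq2 and the fit of all 4 groups called 1 member, *Aplnr*. In the 4-group fit it passed the count filter through its stroke libraries only. All genes called there numbered 108, and 67 with no scaling, 907 with DESeq2, 179 with all genes that had a count, 68 with limma on log2(FPKM + 1), 39 with the endothelial covariate, 1125 with all 4 groups, 1437 without the 3 libraries that stood apart, 0 with the regional covariates and 9 (without HT + Sham 3 or without HT + Stroke 2) to 533 (without HT + Stroke 1) with 1 library left out. In HT + Stroke vs NT + Sham, the members called (1) were 0 with no scaling, either limma fit or either set of covariates, 2 with DESeq2, 4 with all 4 groups, 3 without the 3 libraries, and 0 to 3 with 1 library left out. All genes called there were 0 with either set of covariates and 1357 to 2966 with 1 library left out. The averaged stroke effect called 5 members with *Aplnr*, which passed the count filter through its stroke libraries only, and 1, *Aplnr*, with the endothelial covariate and 3 to 6 with 1 library left out, and 1830 and 1609 of all genes with the endothelial and regional covariates. DESeq2 called 22 genes for the interaction. With no scaling, 2 relations with the injury macrophage score passed, against 1 with scaling. Leaving out the 3 libraries and the regional covariates were chosen after seeing the data. The cause of these moves was not tested.

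Nothing in the labels says that library numbers pair the groups. Deviations of same-numbered libraries of different groups had a median r of 0.0657 (36 pairs, 17 over 0.1). For different-numbered libraries it was 0.0101 (180 pairs, 48 over 0.1). The ranges of r overlapped widely, from -0.48 to 0.361 for same-numbered and from -0.538 to 0.442 for different-numbered libraries. Whether numbers pair libraries was not tested. With the library number as a block, 46 genes passed in HT + Stroke vs HT + Sham, and 770 genes and 0 members in HT + Stroke vs NT + Sham, and the block moved no other count of members.

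Direction changed for log2 fold changes that did not pass the test. With all genes that had a count it changed for *Vegfa* (-0.0054) in NT + Stroke vs NT + Sham, and for *Tek* (-0.0079) in the averaged stroke effect. With the endothelial covariate it changed for *Vegfa* (-0.070) and *Pgf* (-0.010) in NT + Stroke vs NT + Sham, for *Pgf* (-0.098) in HT + Sham vs NT + Sham, for *Pgf* (0.059) and *Tie1* (0.048) in HT + Stroke vs NT + Stroke, for *Flt1* (-0.053) and *Kdr* (-0.22) in HT + Stroke vs NT + Sham, for *Pgf* (0.081) and *Apln* (0.051) in the interaction, and for *Tek* (-0.051) in the averaged stroke effect. With limma on log2(FPKM + 1) it changed for *Flt1* (0.013) in HT + Stroke vs HT + Sham, and for *Aplnr* (0.016) in the interaction. With limma on log2(FPKM + 0.1) it changed for *Flt1* (0.016) in HT + Stroke vs HT + Sham. Without the 3 libraries it changed for *Flt1* (0.0036) in HT + Stroke vs HT + Sham, for *Pgf* (-0.056) in HT + Sham vs NT + Sham, for *Tie1* (0.032) in HT + Stroke vs NT + Stroke, for *Vegfa* (0.00055) in HT + Stroke vs NT + Sham, for *Pgf* (0.058) and *Apln* (0.014) in the interaction, and for *Pgf* (-0.026) and *Angpt2* (0.15) in the averaged angiotensin II effect. With the regional covariates it changed for *Kdr* (-0.013) in HT + Stroke vs HT + Sham, for *Pgf* (-0.23) and *Apln* (0.18) in HT + Sham vs NT + Sham, for *Vegfa* (0.018), *Angpt1* (0.063) and *Tie1* (0.011) in HT + Stroke vs NT + Stroke, for *Vegfa* (0.28) and *Tek* (0.074) in HT + Stroke vs NT + Sham, for *Kdr* (0.051) and *Pgf* (0.064) in the interaction, and for *Vegfa* (0.019) in the averaged stroke effect. With no scaling beyond library size it changed for *Vegfa* (-0.011) and *Pgf* (-0.012) in the averaged angiotensin II effect. With 1 library left out, values crossed 0 for *Vegfa* (from -0.050 to 0.12) in NT + Stroke vs NT + Sham, for *Flt1* (from -0.050 to 0.049) and *Angpt1* (from -0.0073 to 0.18) in HT + Stroke vs HT + Sham, for *Flt1* (from -0.029 to 0.065), *Kdr* (from -0.20 to 0.022) and *Pgf* (from -0.056 to 0.16) in HT + Sham vs NT + Sham, for *Pgf* (from -0.13 to 0.019), *Tek* (from -0.011 to 0.12) and *Tie1* (from -0.091 to 0.029) in HT + Stroke vs NT + Stroke, for *Vegfa* (from -0.16 to 0.043), *Flt1* (from -0.018 to 0.062) and *Kdr* (from -0.053 to 0.17) in HT + Stroke vs NT + Sham, for *Apln* (from -0.068 to 0.075) in the interaction, for *Tek* (from -0.039 to 0.039) in the averaged stroke effect, and for *Vegfa* (from -0.052 to 0.053), *Pgf* (from -0.062 to 0.049) and *Angpt2* (from -0.20 to 0.033) in the averaged angiotensin II effect. In the relations, leaving out the 2 libraries farthest from the median score turned r to -0.163 (*Vegfa*), -0.228 (*Flt1*), -0.544 (*Kdr*), -0.0137 (*Pgf*), -0.0992 (*Angpt1*) and -0.119 (*Tie1*) for the injury macrophage score and to -0.122 (*Vegfa*), -0.11 (*Tek*) and -0.0823 (*Tie1*) for the endothelial score, and no scaling turned it to 0.0162 (*Tek*) for the injury macrophage score. The cause was not tested. Depth limits *Aplnr* and *Angpt2* most.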

Other observations

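*Angpt4*, another angiopoietin, did not pass the filter on low counts in any comparison. It was at 0.0683 ± 0.0312 FPKM in NT + Sham, 0.212 ± 0.0842 FPKM in NT + Stroke, 0.0601 ± 0.0703 FPKM in HT + Sham and 0.171 ± 0.11 FPKM in HT + Stroke (SD, n = 6). *Apela*, the second apelin receptor ligand, was between 0.019 and 0.0552 FPKM on average in the 4 groups.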
